A study of Mus musculus with 2 samples.

Results

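The 10 genes described here are the kinases, coactivators and DNA-binding factors at the core of the Hippo pathway: the Mst kinase genes Stk3 and Stk4, the Lats kinase genes Lats1 and Lats2, the coactivator genes Yap1 and Wwtr1 (which encodes Taz), and the Tead factor genes Tead1, Tead2, Tead3 and Tead4. They were chosen by symbol and found by Ensembl gene identifier, and all 10 were among the 43346 Ensembl gene rows of both gene tables. RNA was measured by sequencing in healthy midbrain of B6NCrl mouse embryos at embryonic day 10.5, with males and females pooled. The labels give 1 group of 2 biological replicates, a pool of 69 embryos for replicate 1 and a pool of 51 embryos for replicate 2, so no genotype, treatment or age is compared. Each library is the average of a whole dissected region over many embryos. In such bulk RNA, fewer cells of a type and less RNA per cell cannot be told apart.

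In the Hippo pathway the Mst kinases, with the adaptor Sav1, phosphorylate and activate the Lats kinases, which act with Mob1 proteins. Active Lats kinases phosphorylate Yap1 and Taz, which are then held in the cytoplasm or degraded. Unphosphorylated Yap1 and Taz enter the nucleus and activate genes through Tead factors, since neither coactivator binds DNA itself. In the embryonic neural tube, Yap1 and Tead factors are known for promoting the division and survival of neural progenitors. Much of this control acts on proteins and their location, which RNA levels do not show.

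Replicate 1 held 47128426 expected counts and replicate 2 held 52189568. Levels are in TPM, which divides counts by transcript length and scales every library to the same total. A gene was called detected when it reached 1 TPM in each library, which held for 12477 of 21474 protein-coding genes (58.1%), whose median was 20.7 TPM. Of 6 midbrain markers 5 were detected, with Otx2 highest at 130.4 TPM ± 10.8 and En2 lowest at 0.815 TPM ± 0.15 (SD, n = 2). All 6 neuroepithelium markers were detected, with Vim highest at 1002 TPM ± 63.1 and Sox2 lowest at 22.1 TPM ± 2.0. Every marker on the lists for newborn neurons, head mesenchyme, endothelium, surface ectoderm, macrophages and red cells was also above 1 TPM in both libraries, so each level below is that of a mixture of cells.

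All 10 core genes were detected in both libraries, and their mean levels spanned a 215.9-fold range, with Tead2 at 311.9 TPM ± 3.6 and Tead4 at 1.44 TPM ± 0.021 (SD, n = 2). Tead2 alone lay near the top of the transcriptome, at the 97.9th percentile of all protein-coding genes and the 96.4th of the detected ones. The other 9 lay between 1.44 and 29.0 TPM. The median of the 10 was 14.3 TPM.

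Tead factors recognise DNA through the TEA domain, which is close in sequence among the paralogs, while their carboxy-terminal region binds the coactivators. In each of the 4 genes, part of the TEA domain is encoded by a pair of neighbouring exons of 65 and 63 bases. The pair is shown because each Tead gene has it and because, in Tead1 and Tead3, intron bases held by transcripts described below adjoin it. Sequences are from GENCODE M21 transcripts on GRCm38, 5′ to 3′ on the strand of the gene, and capitals mark bases identical in all 4 genes. The positions are chr7:112839416-112842102 (plus strand) for Tead1, chr7:45218081-45219206 (plus) for Tead2, chr17:28336511-28340218 (minus) for Tead3 and chr6:128251540-128251986 (minus) for Tead4, each including the intron between the exons.
Tead1: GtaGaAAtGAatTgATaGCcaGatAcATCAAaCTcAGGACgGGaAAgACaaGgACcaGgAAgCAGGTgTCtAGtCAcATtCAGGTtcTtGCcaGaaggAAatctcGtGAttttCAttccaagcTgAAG
Tead2: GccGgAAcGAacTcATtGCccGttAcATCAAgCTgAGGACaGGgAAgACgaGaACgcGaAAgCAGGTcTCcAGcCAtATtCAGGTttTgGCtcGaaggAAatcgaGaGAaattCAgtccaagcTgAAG
Tead3: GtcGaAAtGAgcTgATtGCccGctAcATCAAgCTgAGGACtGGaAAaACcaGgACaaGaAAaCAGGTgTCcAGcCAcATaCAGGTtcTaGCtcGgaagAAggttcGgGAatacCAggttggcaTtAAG
Tead4: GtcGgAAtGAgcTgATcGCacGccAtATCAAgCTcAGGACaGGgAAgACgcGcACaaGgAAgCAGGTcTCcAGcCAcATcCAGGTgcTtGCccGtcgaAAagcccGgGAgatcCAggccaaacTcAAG
Of the 128 bases, 70 were identical in all 4 genes (54.7%). Pairwise identity was 75% for Tead1 and Tead2, the highest of the 6 pairs, and 70.3% for Tead1 and Tead3 and for Tead2 and Tead3, the lowest. Over whole transcripts the longest identical run between any pair of Tead genes was 59 bases, shared by Tead3 and Tead4. No Tead transcript held an identical stretch of 100 bases, the fragment length that the deposited effective lengths imply, in common with another gene.

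Tead2 carried nearly all of the Tead RNA. It had 309.4 TPM in replicate 1 and 314.4 TPM in replicate 2, from 15600 and 18520 expected counts. Tead1 had 14.5 and 14.3 TPM, Tead3 had 4.13 and 4.25 TPM, and Tead4 had 1.46 and 1.43 TPM. Within each gene the libraries lay close together, and the ranges of the 4 genes did not overlap. As a share of the summed Tead TPM, Tead2 held 93.9% in replicate 1 and 94.0% in replicate 2. Tead1 held 4.41% and 4.28%, Tead3 held 1.25% and 1.27%, and Tead4 held 0.443% and 0.428%. Tead2 was thus 21.6-fold ± 0.50 above Tead1 in TPM (SD, n = 2), the next Tead gene. Tead4, a factor known for its role in the trophectoderm of the early embryo, rested on only 99 and 100 counts, and its deposited credible intervals reached up to 2.44 TPM in replicate 1 and 2.34 TPM in replicate 2.

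Most of the Tead1 TPM was assigned to a short transcript that includes intron bases. The 646-base transcript Tead1-209 (ENSMUST00000168328), which GENCODE classes as a retained intron, had 8.97 TPM in replicate 1 and 8.56 TPM in replicate 2, or 61.7% and 59.9% of the Tead1 TPM. The coding transcript Tead1-202 (ENSMUST00000069256), which is 9480 bases long, had 3.58 and 3.96 TPM, or 24.6% and 27.7%. In expected counts the order was the reverse, with 144.0 and 157.3 counts for Tead1-209 against 984.7 and 1249 counts for Tead1-202. The short transcript therefore held 12.3% and 10.8% of the Tead1 counts, and the division by length made it the larger in TPM. A further retained-intron transcript, Tead1-214 (894 bases), held 12.2% and 10.2% of the TPM from 41.3 and 39.0 counts.

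The last exon of Tead1-209 is chr7:112841888-112842374, with 487 bases. It holds the 63-base TEA exon with 152 intron bases before it and 272 after it, and spans neither intron whole. Tead1-214 runs past the same exon into the same following intron for 293 bases and ends there. The bases around the exon are printed to show what sets these transcripts apart from Tead1-202, with intron bases in capitals and exon bases in lower case. The first line is chr7:112841980-112842059 and the second is chr7:112842083-112842162, both on the plus strand.
Tead1-209, into the exon: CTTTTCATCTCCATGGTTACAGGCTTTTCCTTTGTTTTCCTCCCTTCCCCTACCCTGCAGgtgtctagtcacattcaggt
Tead1-209, out of the exon: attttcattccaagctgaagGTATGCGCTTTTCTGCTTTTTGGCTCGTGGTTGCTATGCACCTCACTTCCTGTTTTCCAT
The intron before the exon ends in CAG and the one after it begins with GT, the usual splice site letters. Summed over transcripts that GENCODE M21 classes as coding, Tead1 had 3.81 TPM in replicate 1 and 4.10 TPM in replicate 2. Transcripts whose identifier is not in M21 could not be classed by identifier and are left out of such sums. On that measure Tead2 held 96.7% and 97.2% of the Tead TPM and Tead1 held 1.48% and 1.52%, and Tead2 stood 64.6-fold ± 1.2 above Tead1 (SD, n = 2). M21 also lists Tead1-215, a transcript of 1 exon with 2841 bases at chr7:112839634-112842474. It covers the last exons of Tead1-209 and Tead1-214 and is not among the Tead1 transcripts that were quantified. Whether RNA of Tead1-215, unspliced RNA or antisense RNA is part of the Tead1-209 value was not tested, and how the libraries treated strand was taken as unknown. 2310014F06Rik, an antisense gene that overlaps the start of Tead1, had 0.37 and 0.58 TPM, and it does not reach the exons of Tead1-209. Its span does cover the first exon of Tead1-214, chr7:112679510-112679726, and its part in the Tead1-214 value was not tested.

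**Figure D1:**
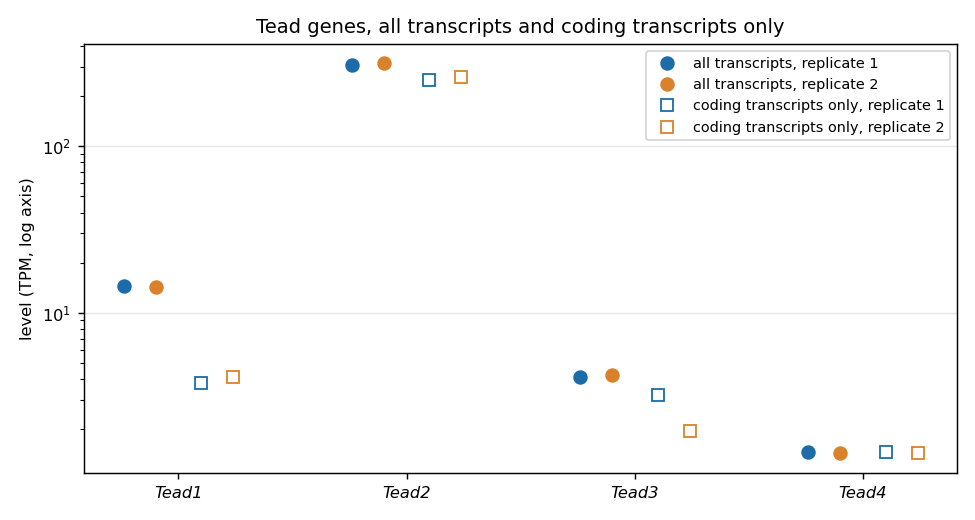
Level in TPM on a log axis of the 4 Tead genes in replicate 1 (blue) and replicate 2 (orange), over all transcripts (filled circles) and over coding transcripts only (open squares). Tead2 stays above 249 TPM on both measures, while Tead1 stands near 14 TPM over all transcripts and near 4 TPM over coding ones. Transcripts whose identifier is not in GENCODE M21 are left out of the coding sums. For Tead3 these hold 0% of the TPM in replicate 1 and 21.6% in replicate 2.

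Tead3 also had a retained-intron transcript at the same place in the gene. Tead3-202 (ENSMUST00000127212) keeps the 1014-base intron that follows the 63-base TEA exon, up to an exon of 12 bases. It had 0.78 TPM in replicate 1 and 0.87 TPM in replicate 2, which is 19.0% and 20.5% of the gene's TPM. The exon end and the start of that intron, chr17:28336451-28336530 on the minus strand, are printed for comparison with Tead1, again with intron bases in capitals.
Tead3-202, out of the exon: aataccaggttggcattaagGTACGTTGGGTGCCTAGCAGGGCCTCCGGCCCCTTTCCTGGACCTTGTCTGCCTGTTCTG
The coding transcript Tead3-201 (ENSMUST00000114799) had 3.02 TPM in replicate 1 and 1.95 TPM in replicate 2, or 73.0% and 45.8%. The difference was taken up by ENSMUST00000080572, a transcript whose identifier is not in GENCODE M21, at 0 TPM in replicate 1 and 0.92 TPM in replicate 2. The deposited credible intervals of Tead3-201, from 1.24 to 3.11 TPM in replicate 1 and from 0.537 to 2.57 TPM in replicate 2, overlapped widely. With 304 and 338 counts for the whole gene, the split between these transcripts was poorly determined, although the gene total was not.

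Tead4 was split between a pair of coding transcripts. Tead4-201 (ENSMUST00000006311) had 0.75 TPM in replicate 1 and 0.58 TPM in replicate 2, and Tead4-203 (ENSMUST00000130454) had 0.71 and 0.75 TPM. Among other differences at both ends, Tead4-203 lacks the 129-base exon at chr6:128247960-128248088, which directly follows the 63-base TEA exon in Tead4-201. The deposited credible intervals of the transcripts overlapped in both libraries, so neither was shown to be the larger.

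Of the Tead2 TPM, Tead2-201 (ENSMUST00000033060) held 64.9% in replicate 1 and 68.4% in replicate 2, at 200.7 and 215.2 TPM. Tead2-202 (ENSMUST00000097216), also coding, had 40.9 and 39.8 TPM, or 13.2% and 12.7%. Tead2-202 begins further downstream and uses an earlier splice site in the exon that holds the start codon, so that 105 coding bases of Tead2-201, a multiple of 3, are absent from it. This stretch, chr7:45217346-45217450 on the plus strand, also encodes part of the TEA domain and leads directly into the 65-base exon. It is printed in capitals with 20 bases on each side, above the junction of Tead2-202 without it.
Tead2-201: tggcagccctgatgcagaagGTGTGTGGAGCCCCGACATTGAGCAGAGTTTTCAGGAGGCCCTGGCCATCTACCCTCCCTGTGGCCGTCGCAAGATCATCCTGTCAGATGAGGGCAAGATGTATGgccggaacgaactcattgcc
Tead2-202: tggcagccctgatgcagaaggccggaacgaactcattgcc
Tead2-201 was 5.15-fold ± 0.35 above Tead2-202 in TPM (SD, n = 2). The third transcript of Tead2 above a share of 10% was ENSMUST00000143734, 460 bases long and with an identifier not in GENCODE M21, which had 42.6 and 35.3 TPM from 451.8 and 427.8 counts. Those are 2.90% and 2.31% of the Tead2 counts. M21 lists a Tead2 transcript of the same length under another identifier, Tead2-204 at chr7:45232148-45233086. Whether they are the same transcript was not tested. Over coding transcripts alone Tead2 had 249.4 TPM in replicate 1 and 261.4 TPM in replicate 2, still the highest of the 10 genes. This sum leaves out 8 Tead2 transcripts whose identifier is not in M21, with 19.1% and 16.3% of the Tead2 TPM but 4.79% and 4.10% of its counts. Several of the 8 have the same length as a Tead2 transcript listed in M21. Cd37, which overlaps the end of Tead2 on the other strand, had 0.54 and 0.36 TPM.

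**Figure D2:**
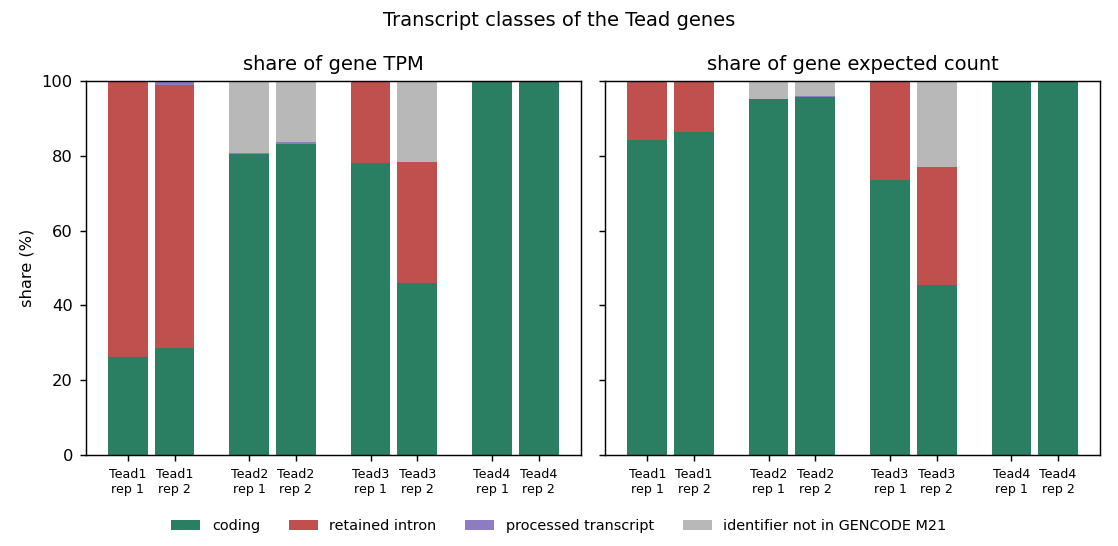
Share in percent of each Tead gene's TPM (left) and of its expected counts (right) held by coding transcripts, retained-intron transcripts, processed transcripts and transcripts whose identifier is not in GENCODE M21, in replicate 1 and replicate 2. Coding transcripts hold 26.2% and 28.7% of the Tead1 TPM but 84.2% and 86.3% of its counts, and in Tead4 they hold all of both. The processed transcript under Tead2, ENSMUST00000123130, is named Med25-202 in GENCODE M21 and had 0.81 and 1.67 TPM.

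The coactivator Yap1 had 21.5 TPM in replicate 1 and 26.6 TPM in replicate 2, and its paralog Wwtr1 had 9.61 and 11.3 TPM. Both were lower in replicate 1, and Yap1 was above Wwtr1 in each library, by 2.23-fold in replicate 1 and 2.36-fold in replicate 2 (2.29 ± 0.087, SD, n = 2). The ranges of the genes did not overlap. Together they came to 31.1 and 37.8 TPM, against 329.5 and 334.4 TPM for the 4 Tead genes. Tead RNA thus exceeded that of the coactivators 10.6-fold in replicate 1 and 8.84-fold in replicate 2, nearly all of it through Tead2. In counts not divided by length the mean ratio was 4.22, against 9.72 in TPM.

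Yap1 came mainly from a pair of coding transcripts that differ by an internal exon. Yap1-202 (ENSMUST00000086580) had 16.6 TPM in replicate 1 and 20.0 TPM in replicate 2, or 77.3% and 75.2% of the gene. Yap1-201 (ENSMUST00000065353) had 4.00 and 5.04 TPM, or 18.6% and 19.0%. Yap1-201 contains exon 6 of its 9 exons, with 48 bases at chr9:7950492-7950539 on the minus strand, and Yap1-202 skips it. Both keep the reading frame, as 48 is a multiple of 3, and the exon falls in the part of the protein that activates transcription. The exon is in capitals, with 20 bases of each neighbouring exon, and the second line is the same junction in Yap1-202.
Yap1-201: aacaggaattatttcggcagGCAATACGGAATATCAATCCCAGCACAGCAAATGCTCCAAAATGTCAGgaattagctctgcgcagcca
Yap1-202: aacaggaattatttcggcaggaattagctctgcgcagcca
The form without the exon was 4.06-fold ± 0.13 above the form with it (SD, n = 2), and their deposited credible intervals were apart in both libraries. Wwtr1 came almost wholly from Wwtr1-201 (ENSMUST00000029380), with 99.3% and 99% of its TPM. Gm20416, which lies antisense to Yap1 and shares up to 117 bases with it, had 0 and 1 counts.

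The Mst kinase genes stood at nearly equal levels in TPM. Stk4, which encodes Mst1, had 29.2 TPM in replicate 1 and 28.8 TPM in replicate 2, and Stk3, which encodes Mst2, had 27.2 and 27.6 TPM. The ranges over the libraries did not overlap, but the ratio of Stk4 to Stk3 was only 1.06 ± 0.020 (SD, n = 2) and the deposited credible intervals of the genes overlapped. In counts not divided by length the ratio was 1.84. Stk4-201 (ENSMUST00000018353) held 88.3% and 86.5% of Stk4, and Stk3-201 (ENSMUST00000018476) held 93.8% and 95.7% of Stk3. Tomm34, a mitochondrial import gene on the other strand, overlaps the first bases of the Stk4 locus and had 49.6 and 51.0 TPM. The overlap ends before the start of Stk4-201.

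The Lats kinase genes were lower. Lats2 had 14.2 TPM in each library, and Lats1 had 8.86 TPM in replicate 1 and 7.11 TPM in replicate 2. Lats2 was above Lats1 in both, by 1.61-fold and 2.00-fold (1.80 ± 0.28, SD, n = 2). The larger spread came from Lats1, which is the core gene with the highest ratio of replicate 1 to replicate 2. Lats1-202 (ENSMUST00000165952) held 100% and 98.7% of Lats1, and Lats2-201 (ENSMUST00000022531) held 80.6% and 85.7% of Lats2. Part of Lats2 is repeated in Gm49361, a read-through gene of GENCODE M21 with up to 2956 bases in common. Its transcript Gm49361-201 (ENSMUST00000174694) stands under Lats2 in the deposited transcript tables, with 0 counts in both libraries and upper credible bounds of 0.157 TPM in replicate 1 and 0.113 TPM in replicate 2. The summed Mst RNA of 56.3 and 56.5 TPM was 2.44-fold and 2.65-fold the summed Lats RNA of 23.1 and 21.3 TPM.

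Sorted by mean TPM, the order was Tead2, Stk4, Stk3, Yap1, Tead1, Lats2, Wwtr1, Lats1, Tead3 and Tead4. No neighbours in this order had overlapping ranges over the libraries, although a range of 2 values is a weak measure of spread. The deposited credible intervals of 4 neighbouring pairs overlapped in at least 1 library: Stk4 and Stk3, Stk3 and Yap1, Tead1 and Lats2, and Wwtr1 and Lats1. With posterior mean TPM, Lats2 stood above Tead1 and the other 8 genes kept their places. Over coding transcripts only, an alternative for the order that was added after the data had been seen, Tead1 moved from rank 5 to rank 8 and the order of the other 9 genes was kept.

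**Figure D3:**
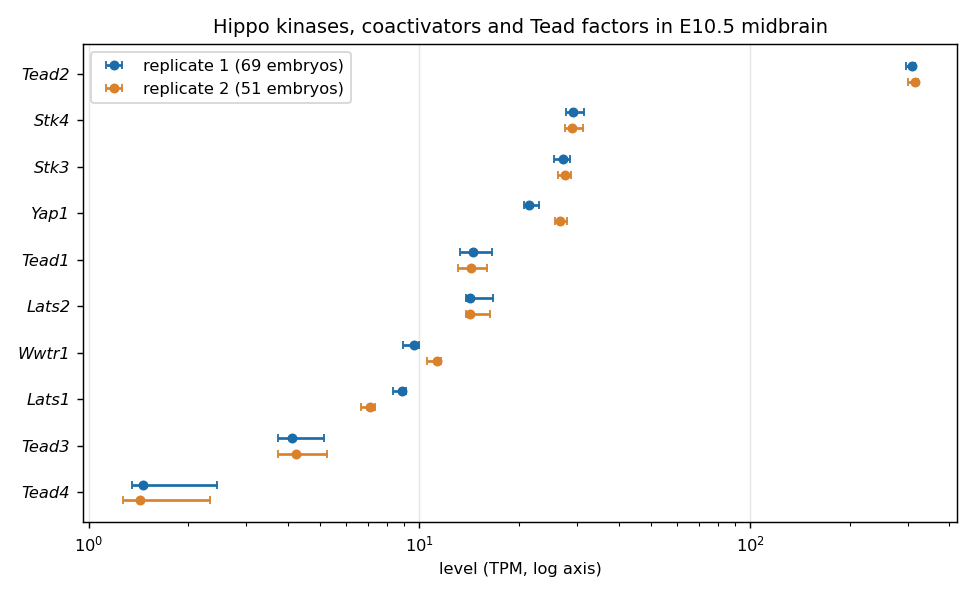
Level in TPM on a log axis of the 10 core genes in replicate 1 (blue, upper point) and replicate 2 (orange, lower point), with bars for the deposited credible interval of each library, sorted by mean. Tead2 stands above 309 TPM, the next gene, Stk4, near 29 TPM, and Tead4 is the lowest at 1.46 and 1.43 TPM.

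How far the core genes differed between the embryo pools was described by the ratio of replicate 1 to replicate 2 in counts scaled by TMM (a normalisation to the bulk of genes). None of the 10 differed by more than 1.5-fold, while 9.64% of the 14768 genes averaging 1 TPM or more did, and 3.22% differed by more than 2-fold. Among genes averaging 10 TPM or more, 2.80% were past 1.5-fold, so this share depends on level. With 1 library on each side no test was possible. The core genes' median difference of 1.10-fold in either direction was near the 1.12-fold of all genes. Yap1 was the furthest apart with a ratio of 0.772 (95% interval 0.733 to 0.813, exact binomial, for counting error only), at the 80.9th percentile of all genes by size of difference. Wwtr1 had 0.806 (0.750 to 0.867), and Lats1 had 1.18 (1.11 to 1.27). The other 7 ratios lay between 0.875 (Tead1) and 1.07 (Tead4). By counts, 2 of the 10 ratios were above 1, Lats1 and Tead4, against 49.0% of all genes. By TPM without further scaling, 4 were above 1 and Lats2 was equal in both libraries, against 62.5% of all genes. The side of Tead1, Stk4 and Lats2 thus rests on the measure, and TPM also divides by transcript length. Yap1 and Wwtr1 were lower and Lats1 higher in replicate 1 by both measures.

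Markers of other cell types also differed between the libraries. All 6 newborn neuron markers were higher in replicate 1, with ratios from 1.27 to 2.12 and a summed level of 1120 TPM in replicate 1 and 714.7 TPM in replicate 2; Tubb3 was the highest at 463.2 TPM ± 140.4 and Elavl3 the lowest at 10.6 TPM ± 3.4 (SD, n = 2). Of 6 head mesenchyme markers 5 were higher in replicate 1, with a median ratio of 1.27 and sums of 797.8 and 550.1 TPM; Col3a1 was the highest at 366.6 TPM ± 70.4 and Twist1 the lowest at 6.84 TPM ± 0.56. All 4 surface ectoderm markers were lower in replicate 1, with sums of 39.5 and 52.2 TPM; Krt8 was the highest at 18.6 TPM ± 2.3 and Epcam the lowest at 5.90 TPM ± 1.0. The median ratio was 1.10 for neuroepithelium markers (sums of 2557 and 2101 TPM), 0.963 for midbrain markers (217.2 and 205.6 TPM) and 0.989 for endothelium markers (157.8 and 170.6 TPM), among which Egfl7 was the highest at 65.5 TPM ± 10.6 and Cdh5 the lowest at 11.0 TPM ± 0.88. Macrophage markers had a median ratio of 1.45 (70.5 and 47.3 TPM) and red cell markers one of 0.859 (11299 and 13217 TPM). In these lists C1qb at 22.4 TPM ± 7.0 and Hbb-y at 6605 TPM ± 435.6 were the highest, and Csf1r at 7.18 TPM ± 2.0 and Slc4a1 at 28.7 TPM ± 0.18 the lowest. The part of these differences in the ratios of Yap1, Wwtr1 and Lats1 was not tested.

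**Figure D4:**
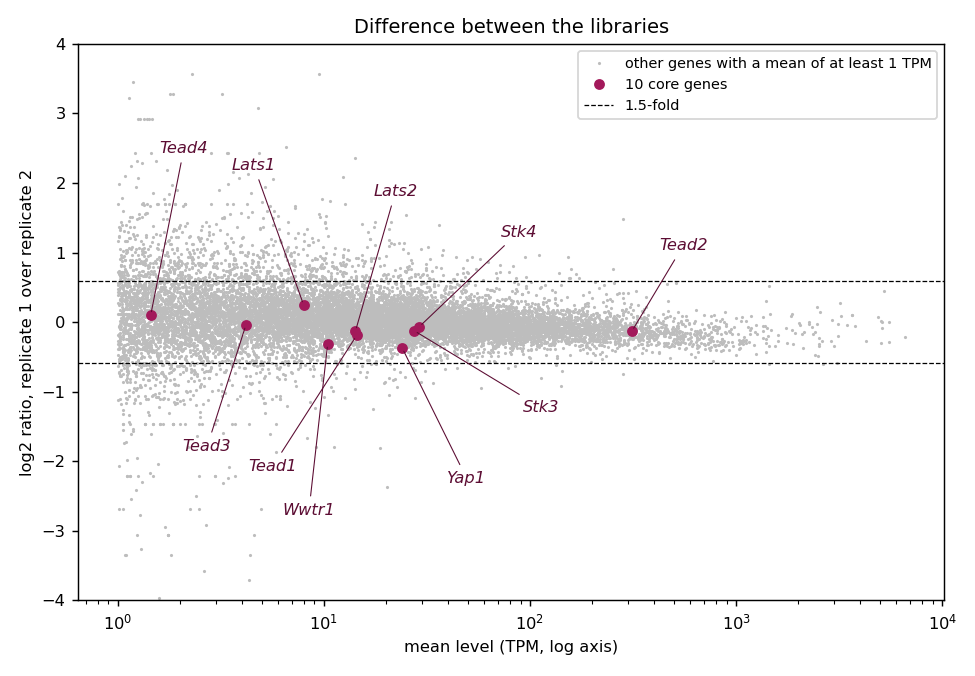
Log2 ratio of replicate 1 to replicate 2 in TMM-scaled counts against the mean level in TPM on a log axis, for the 10 core genes (purple) and the other genes averaging 1 TPM or more (grey; 13 lie outside the plotted range), with dashed lines at 1.5-fold. The core genes all lie between the dashed lines, from Yap1 at -0.37 to Lats1 at 0.24.

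Of 92 further genes of the pathway in 8 lists, 81 (88.0%) were detected, with a median of 13.05 TPM over all 92. For comparison, detection reached 58.1% over all protein-coding genes, and their median was 3.73 TPM. Pathway lists hold widely expressed genes, and nothing particular to the midbrain is read from this. Of the 81 detected genes 3 differed by more than 1.5-fold between the libraries: Tnik was higher in replicate 1, and Map4k1 and Wtip were lower. Past 1.5-fold were 9.64% of all genes averaging 1 TPM or more, and 2.80% of those averaging 10 TPM or more. Nothing is read from the count.

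All 7 kinase adaptors and upstream partners were detected, with a median of 11.8 TPM. Mob1a, a Lats cofactor, had 52.1 TPM in replicate 1 and 51.4 TPM in replicate 2, and Nf2, which encodes the membrane adaptor Merlin, had 55.0 and 47.2 TPM. Sav1, the adaptor of the Mst kinases, was the lowest at 4.38 and 3.11 TPM, next to Wwc1, a scaffold also called Kibra, at 4.51 and 4.29 TPM. Sav1 RNA was thus well below that of either Mst kinase gene in both libraries.

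All 12 related kinases were detected, with a median of 13.2 TPM. Stk38, an Ndr kinase gene related to Lats1 and Lats2, had 94.7 TPM in replicate 1 and 84.3 TPM in replicate 2, and Taok2, whose relatives phosphorylate Mst kinases, had 47.0 and 41.4 TPM. Of the Map4k genes, which can act on Lats kinases in parallel to the Mst kinases, Map4k4 was the highest at 32.0 and 21.4 TPM. Map4k1 was the lowest of the list at 4.05 and 5.82 TPM, followed by Tnik at 9.60 and 5.64 TPM, and these were the genes past 1.5-fold, with ratios of 0.658 and 1.78.

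The genes on the list of Yap1 restraint were all detected, 15 of 15, with a median of 108.4 TPM. The highest were Ywhae at 1184 TPM in replicate 1 and 1190 TPM in replicate 2 and Ywhaq at 1153 and 1138 TPM, whose products bind phosphorylated Yap1 among many other proteins. Csnk1e and Csnk1d, casein kinase genes of the step towards Yap1 degradation, had means of 120.5 TPM ± 18.6 and 108.4 TPM ± 9.1. Amotl2 had 60.05 and 51.4 TPM, above the other angiomotin genes Amotl1 (12.5 in both) and Amot (10.3 and 10.9). The lowest were Ptpn14, a phosphatase that binds Yap1, at 3.72 and 3.88 TPM and Sfn at 8.35 and 6.65 TPM.

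Of 16 apical and cadherin inputs 13 were detected. Llgl1, a polarity gene of the basolateral side, was the highest at 133.6 TPM in replicate 1 and 125.2 TPM in replicate 2, followed by Crb2, an apical polarity gene, at 26.3 and 26.7 TPM. Crb2 was far above its relatives Crb1 (1.05 and 0.65 TPM) and Crb3 (1.00 and 1.29 TPM). Among the giant cadherins, Fat1 had 16.2 and 14.1 TPM, Fat4 had 5.57 and 4.34 TPM and its ligand Dchs1 had 8.64 and 5.78 TPM. Fat2 (0.02 and 0.03 TPM) and Dchs2 (0.14 and 0.12 TPM) were the lowest of the list.

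All 10 Lats inhibitors were detected, with a median of 42.1 TPM. Mob4 had 112.2 TPM in replicate 1 and 108.3 TPM in replicate 2 and Strn4 had 117.2 and 93.7 TPM, and both belong to the phosphatase complex that acts on Mst kinases. The LIM proteins that bind Lats kinases differed widely, with Ajuba at 50.4 and 66.8 TPM, Limd1 at 42.7 and 41.5 TPM and Wtip, the lowest of the list, at 2.81 and 4.31 TPM. Wtip had a ratio of 0.660. Strn followed with 5.18 and 4.57 TPM.

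Of 6 Tead cofactors 4 were detected. Vgll4, whose product competes with Yap1 for Tead factors, had 53.8 TPM in replicate 1 and 49.5 TPM in replicate 2, above the 31.1 and 37.8 TPM of Yap1 and Wwtr1 together. In counts not divided by length Vgll4 had 2851 and 2935, against 2489 and 3489 for Yap1 and 1297 and 1740 for Wwtr1. Its place above the sum of the coactivators thus rests on the division by length. After Vgll4 the coactivator Ncoa3 was next at 13.4 and 12.9 TPM. Vgll3 had 1.34 and 1.30 TPM, while Vgll1 (0.08 and 0.06 TPM) and Vgll2 (0.05 and 0.33 TPM) were not detected. Of 6 Rassf genes, whose products can bind Mst kinases, 4 were detected, with Rassf1 highest at 45.8 and 46.6 TPM and Rassf2 next at 28.8 and 24.2 TPM. Rassf5 (0.87 and 0.79 TPM) and Rassf6 (0.24 and 0.03 TPM) were below 1 TPM.

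Of 25 genes known as Yap1 targets in other cells 21 were detected. Their list median was 10.6 TPM, and none of the 21 differed by more than 1.5-fold between the libraries, where 9.64% of all genes did, so that with so few genes nothing is read from the count. The highest were the cell survival gene Birc5, at 315.4 TPM in replicate 1 and 350.6 TPM in replicate 2, and the cyclin gene Ccnd1, at 213.9 and 198.9 TPM, both genes that dividing cells use in any case. Ccn1 had 27.4 and 30.7 TPM, whereas its relative Ccn2 had 5.96 and 8.70 TPM. Ankrd1 (0.06 and 0.04 TPM) and Areg (0.09 and 0 TPM) were the lowest. Lats2, itself a core gene, is also on this list. The ratio of replicate 1 to replicate 2 was above 1 for 10 of the 21 and below 1 for 11. The lowest were those of Ccn2 (0.700) and Ajuba (0.714), and the highest those of Crim1 (1.40) and Axl (1.31).

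**Figure D5:**
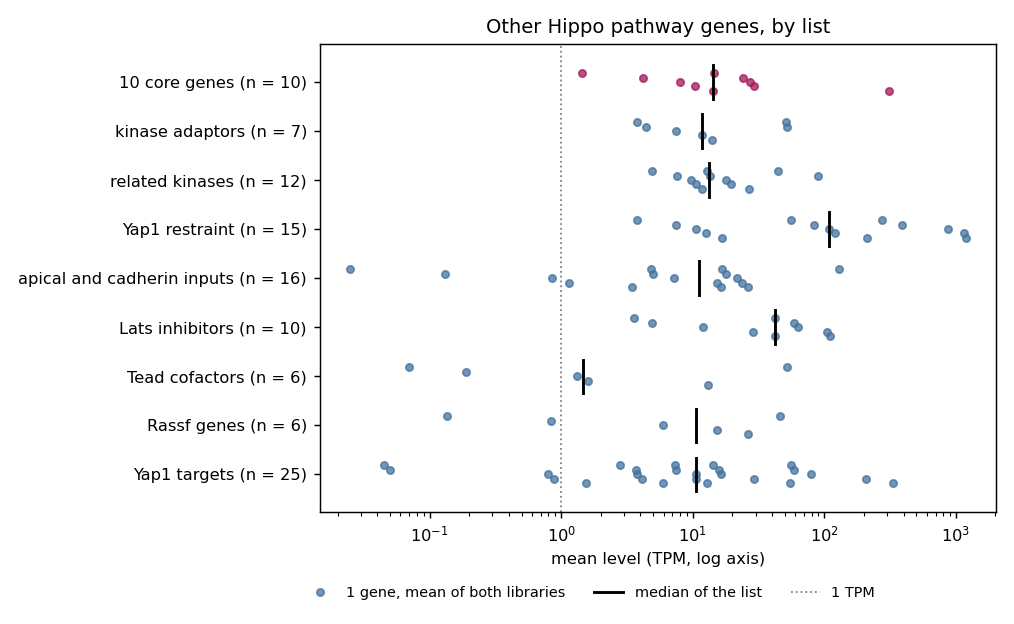
Mean level in TPM on a log axis of the 10 core genes (purple) and of the genes of 8 Hippo lists (blue), 1 point per gene, with the median of each list as a black bar and 1 TPM as a dotted line. The Yap1 restraint list has the highest median, at 108.4 TPM, and the Tead cofactors the lowest, at 1.46 TPM.

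Tead proteins bind the M-CAT motif CATTCC. RefSeq promoter windows of 300 bases on GRCm38.p6, most of each upstream of a start, were present for 7 of the 10 core genes, as 11 windows. The motif, searched on both strands, occurred in 6 of these windows, those of Yap1, Wwtr1 (2 overlapping windows with 1 shared match), Lats2 (1 of 2) and Tead3 (2 of 3), and in 14.7% of all 32851 windows. It was not found in the windows of Tead2, Lats1 and Stk4. The Yap1 and Wwtr1 matches lie 136 and 131 bases before the GENCODE gene start. The Lats2 match instead lies inside the first exon of Lats2-201, chr14:57745890-57746123, close to its start. The Tead3 pair printed below lies inside the gene but before the start of Tead3-201. Stretches of 30 bases around a match are printed on the strand of the gene, with the motif or its reverse, GGAATG, in capitals, at chr9:8004720-8004749 for Yap1, chr3:57576029-57576058 for Wwtr1, chr14:57746102-57746131 for Lats2 and chr17:28350706-28350735 for Tead3, all on the minus strand.
Yap1: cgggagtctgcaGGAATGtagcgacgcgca
Wwtr1: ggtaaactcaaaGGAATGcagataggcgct
Lats2: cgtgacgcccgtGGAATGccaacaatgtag
Tead3: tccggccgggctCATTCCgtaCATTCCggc
A further 7 motifs were searched on both strands. GGGCGG was in 10 of the 11 windows and in 35.7% of all, CACGTG in 3 and 7.15%, GGAAGTG in 1 and 11.0%, and ATTTTGA in 1 and 4.01%. CCAAT was in none of the 11 windows and in 37.4% of all, and ATTGGCTG, whose reverse contains CCAAT, and TTTGGCGC were in none of the 11 and in 3.82% and 0.514% of all. The core gene windows held 13 to 49 CG pairs, except 1 Lats2 window with 4, against a median of 7 over all windows. Some of the 11 windows also overlap, so nothing is read from these counts. A match is a description of the letters, and binding was not measured.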

How the data were processed

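RNA was extracted with the mirVana kit and 10 ng of RNA larger than 200 nt was used, with spike-ins, per the labels' protocols. Per the file headers, genes and transcripts were quantified on mm10 with GENCODE M4; which aligner and quantifier were used is not given in the sources used here. The authors deposited expected counts, which share reads among transcripts and need not be whole, TPM and posterior mean TPM (counts over effective length, scaled per library), FPKM (an alternative for the order), the signal bounds of a TPM credible interval whose level is not stated, and the isoform percent of each transcript. Effective length was length less 99 bases.

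Names, classes and positions came from GENCODE M21 (GRCm38, the assembly of mm10), and models may differ from M4; 42462 of 43346 identifiers matched. The 97 spike-in and 26248 tRNA rows, with 3.39% and 3.28% of the counts, were left out. Counts were rounded, scaled by edgeR 4.0.16 TMM factors (1.01 and 0.988) and given 0.5 more for ratios, over genes averaging 1 TPM or more. DESeq2 1.42.0 size factors were an alternative. The ratio calculation was also run on simulated counts with counting error only, which cannot show variation between pools. Intervals are exact binomial (scipy 1.17.1) and cover counting error only. They treat reads as independent, which PCR copies are not, so they may be too narrow even for counting error. Shared sequence was searched with BLAST 2.17.0.

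With 1 group there is no test and no p-value; SD is over 2 pools. The genes, lists and rules were chosen with earlier results of these data known. Named were the 10 genes, their transcripts with a share of at least 10% in either library, at least the highest 2 and lowest 2 genes of each Hippo list, and the highest and lowest of each marker list. The genes Amotl2, Ajuba, Fjx1 and Ptpn14, are in more than 1 Hippo list.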

Additional observations from a re-analysis of the deposited data

How the results depend on the processing

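With 2 libraries of 1 group, spread is known from 2 values alone and depth limits the split of low genes into transcripts more than their totals. No paired analysis was possible because the labels give 1 group only. The 10 core genes differed by less than 1.5-fold between the libraries under every scaling and filter run. The order of Tead1 and Lats2 turned with posterior mean TPM, and Tead1 fell below Lats2, Wwtr1 and Lats1 with coding transcripts; no ratio between paralogs changed direction. Without 1 replicate, Yap1 over Wwtr1 lay between 2.23 and 2.36, Lats2 over Lats1 between 1.61 and 2.00, Stk4 over Stk3 between 1.04 and 1.07, and the Tead2 share of Tead TPM between 93.9% and 94.0%. At 10 TPM or more, 6 of the 10 genes were detected, and at 5 TPM or more, 2 of 6 Tead cofactors. With FPKM, 2 neighbouring pairs in the order had overlapping ranges, and with coding transcripts 1 pair did, against 0 with TPM. With 1 TPM added, Yap1 over Wwtr1 was 2.18 and the Tead2 share 93.1%. With posterior mean TPM, Stk4 over Stk3 was 1.08 and the Tead2 share 93.6%. With coding transcripts, Stk4 over Stk3 was 1.09 and the Tead2 share 97.0%. Counts not divided by length gave 1.96 for Yap1 over Wwtr1, 1.19 for Lats2 over Lats1, 1.84 for Stk4 over Stk3 and 90.8% for Tead2, and 4.22 for the Tead sum over Yap1 plus Wwtr1, since longer transcripts give more reads. The share of all genes past 1.5-fold was 31.9% with no filter on low genes and 2.80% at 10 TPM or more; past 2-fold it was 3.22%. Of 18 isoform shares, 9 moved by more than their spread with posterior means, the largest of them in Tead4.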
